A study of Homo sapiens with 35 samples.

Results

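The genes described here are 39 enzymes and cofactors of histone H3 methylation and acetylation, chosen by name from a table of 28503 genes. All 39 were found under their symbols: 12 demethylases, 9 methyltransferases and methyltransferase subunits, 9 acetyltransferases, and 9 readers and scaffold proteins. They were grouped as writers, erasers and readers of methylated lysine 4 and acetylated lysine 14 of histone H3, but the set is broader than that. KDM2, KDM3, KDM4 and KDM6 enzymes and EZH2 act on other lysines of histone H3, and KAT5 and KAT8 act mainly on histone H4. The KDM5 demethylases and the genes of the NuRD complex are not among them.

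RNA was sequenced from DU145 cells, an established human line of prostate cancer that was isolated at a metastatic site in the brain. Hairpin RNAs were directed at luciferase in the control group (shLuciferase), since human cells have no such gene, at ZMYND8 in the group shZMYND8, and at JARID1D, the gene now called KDM5D, in the group shJARID1D. Each group had 2 libraries. All groups thus share the parental line and the hairpin treatment, and the 29 chromatin samples of the 35 samples in the series were not used here. The labels give neither the number of hairpins per target nor whether paired libraries stem from different cultures, so each p-value reflects the spread of these 6 libraries alone, and that spread could be technical.

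Histone H3 lysine 4 is methylated by COMPASS-type complexes, in which a catalytic SET-domain protein works with the shared subunits WDR5, RBBP5, ASH2L and DPY30. Demethylases of the LSD and Jumonji families remove the methyl groups, acetyltransferases modify neighbouring lysines, and proteins with PHD fingers, bromodomains or PWWP domains bind the result. ZMYND8 carries such reader domains and, by the title of the series, binds histone H3 that is both monomethylated at lysine 4 and acetylated at lysine 14. KDM5D removes methyl groups from lysine 4. The comparisons ask which genes differ when either protein's RNA is lowered.

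Values are CPM, in which each library is scaled by its total times its TMM factor (0.966 to 1.06). The deposited totals were 22925611 to 25001300 counts per library. Genes were called when the Benjamini-Hochberg adjusted p of edgeR's quasi-likelihood test was under 0.05 over 15867 genes, and log2 fold changes are given with their SE. ZMYND8 was at 64.7 and 52.7 CPM in the shLuciferase libraries, at 35.5 and 33.2 in shZMYND8 and at 69.7 and 63.7 in shJARID1D, a fall of 1.71-fold in shZMYND8 (adjusted p = 0.00491, and 0.0581 without shZMYND8 replicate 2). KDM5D was at 58.1 and 61.0 CPM in shLuciferase, 55.5 and 59.9 in shZMYND8 and 19.6 and 17.9 in shJARID1D, a fall of 3.18-fold in shJARID1D (adjusted p = 0.000831). Of 7 epithelial markers, KRT5 was at 0 in every library, and their summed level was 2359 to 3368 CPM in shLuciferase, 2182 to 2261 in shZMYND8 and 1647 to 1885 in shJARID1D. Keratins made up most of that sum, and EPCAM and CDH1 went opposite ways by value in shZMYND8: EPCAM was at 21.0 and 19.8 CPM in shLuciferase, 6.90 and 5.84 in shZMYND8 and 17.4 and 13.97 in shJARID1D, and CDH1 at 48.9 and 29.0, 83.8 and 73.6, and 41.8 and 32.7. Of the prostate luminal markers, KLK2 was at 0 in every library. Of 12 markers of other cell types, CD3E and DCN were at 0 and 9 were under 1 CPM everywhere. Their sum was 38.3 to 44.1 CPM in shLuciferase, 52.1 to 63.8 in shZMYND8 and 46.9 to 49.3 in shJARID1D, most of it CD68. Whether these marker levels bear on the results below was not tested, and in bulk RNA fewer cells of a type and less RNA per cell cannot be told apart.

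All 39 genes passed the filter on low counts, with a lowest deposited count of 75, for KDM6B. Lowering ZMYND8 RNA was accompanied by a rise of 3 of them (KDM6B, KDM2A and BRPF3) and a fall of 2 (KDM1A and KAT8), which is 12.8% of the 39 beside 16.2% of all genes tested (8.89% higher and 7.34% lower). Lowering KDM5D RNA was accompanied by a rise of 1, KAT5, and a fall of 0, beside 5.75% of all genes tested (2.96% higher and 2.79% lower). Between the knockdowns, EP300 was higher in shZMYND8, and SETD7, KAT5 and KAT8 were lower, beside 15.7% of all genes tested (8.67% higher and 7.02% lower). The shares of the 39 that were called, 12.8%, 2.56% and 10.3%, are near or below those of all genes and are no result about the set. Without a filter on low counts, or with only the groups compared in the fit, KDM6B alone was called in shZMYND8, and KAT5 was not called in shJARID1D (adjusted p = 0.0644 and 0.0542). The other 31 genes passed the threshold in none of the 3 comparisons. Some fits below leave out 1 library and so keep 1 in that group. In all 3 comparisons, leaving out a knockdown library lowered the share called over all genes, and leaving out a control raised it. A call lost or gained in such a fit cannot be read as particular to that gene.

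Changes among the 39 were small. The median absolute log2 fold change was 0.18 in shZMYND8 and 0.13 in shJARID1D, beside 0.27 and 0.23 over all genes tested. The median SE in the shZMYND8 comparison was 0.13 for the 39 and 0.16 for all genes. The 95% interval of the fold change lay within 2-fold for 38 of 39 genes in each knockdown, with KDM6B the exception in both, and within 1.5-fold for 24 in shZMYND8 and 31 in shJARID1D. The 4 libraries of shZMYND8 and shLuciferase did not overlap for 22 of 39 genes, 11 higher and 11 lower, where 57.8% of all genes tested were without overlap (30% higher and 27.8% lower). For shJARID1D this held for 23 of 39 genes, 12 higher and 11 lower, where 51.9% of all genes were without overlap (27% higher and 24.9% lower). These shares of non-overlapping genes are near those of the whole table and are no result about the 39. For the 0 genes that fell in shJARID1D, edgeR gave 4 at an unadjusted p under 0.05, and DESeq2 and limma voom also called 0.

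**Figure D1:**
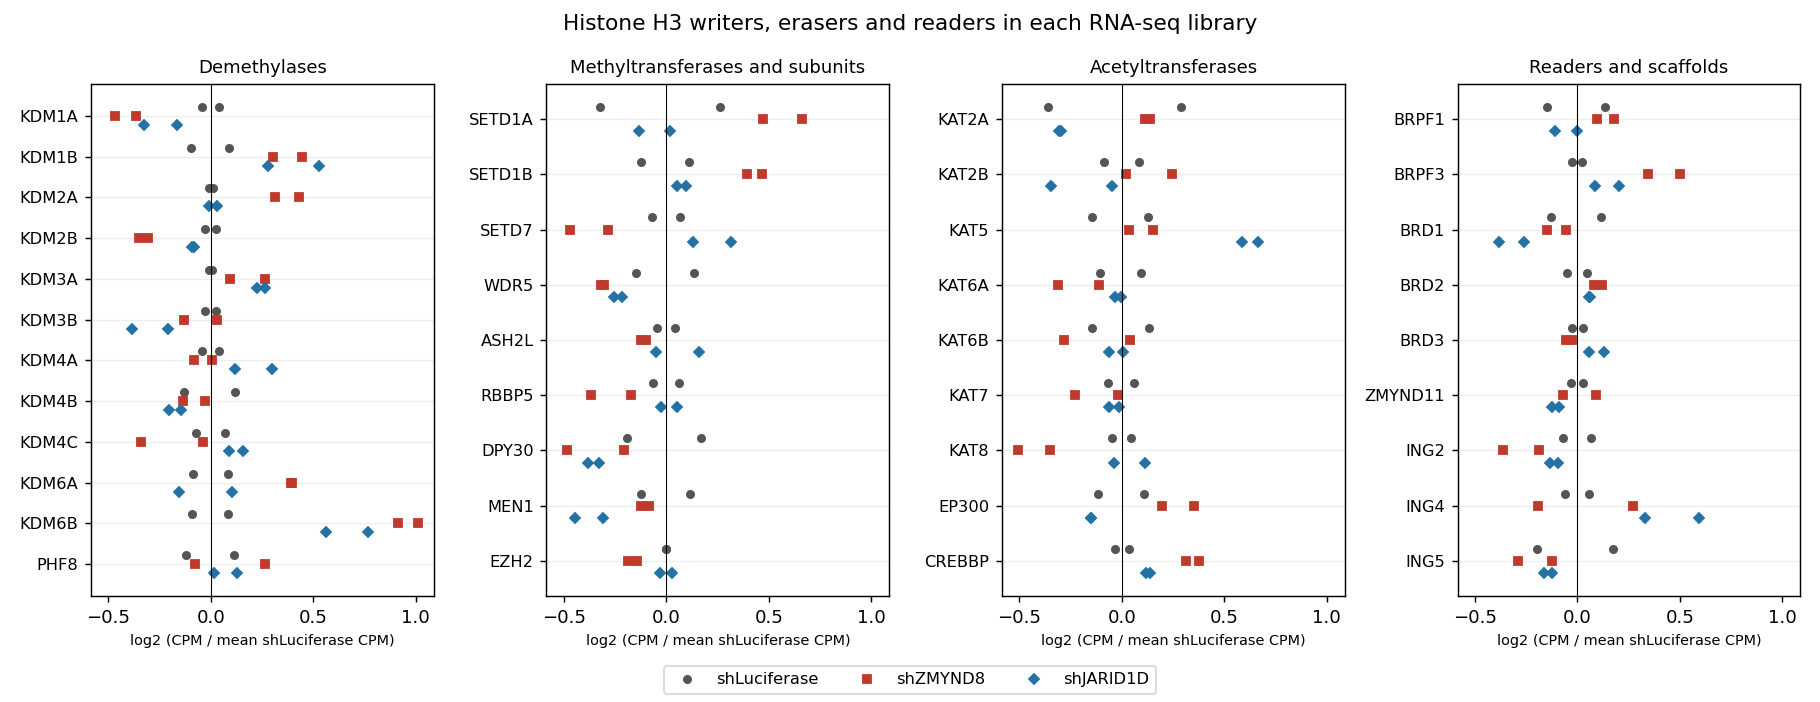
Log2 ratio of each library's CPM to the mean CPM of the shLuciferase libraries for the 39 genes, in 4 panels by role. Each point is 1 library. KDM6B reaches farthest to the right, at 6.86 CPM in shZMYND8 replicate 1 beside 3.19 and 3.60 CPM in shLuciferase.

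The plot of ratios by library shows the 2 libraries of a group close together for most genes. The median ratio of the higher to the lower library among the 39 was 1.1 in shLuciferase, 1.1 in shZMYND8 and 1.05 in shJARID1D, beside 1.18, 1.11 and 1.11 over all genes tested. The widest pairs were KAT2A in shLuciferase, at 1.57, ING4 in shZMYND8, at 1.38, and KAT2B in shJARID1D, at 1.23.

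Demethylases gave the largest rise of the set. KDM6B encodes a Jumonji demethylase of trimethylated lysine 27 of histone H3. Its level was 3.19 and 3.60 CPM in shLuciferase, 6.86 and 6.40 in shZMYND8 and 5.01 and 5.79 in shJARID1D. Both shZMYND8 libraries stood above all others, and both shJARID1D libraries lay between them and the controls. KDM6B rose 1.95-fold in shZMYND8 (log2 fold change 0.96 ± 0.20, 95% interval 0.51 to 1.42, adjusted p = 0.0114). The call was lost without shZMYND8 replicate 1 (adjusted p = 0.0972) and without shZMYND8 replicate 2 (0.0611). In shJARID1D the log2 fold change was 0.67 ± 0.20 with an adjusted p of 0.0852, which did not pass. The 2 knockdowns did not differ from each other for KDM6B by the test (log2 difference 0.29, 95% interval -0.14 to 0.73, adjusted p = 0.337).

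RefSeq lists more than 1 start for KDM6B, and its first promoter window is shown because this gene had the largest change of the set. The window runs from 250 bases before to 50 bases after the start, chr17:7833967-7834266 on the plus strand of GRCh38.p14. Capitals mark the GC box GGGCGG on either strand, a site known to bind Sp1-type factors.
KDM6B: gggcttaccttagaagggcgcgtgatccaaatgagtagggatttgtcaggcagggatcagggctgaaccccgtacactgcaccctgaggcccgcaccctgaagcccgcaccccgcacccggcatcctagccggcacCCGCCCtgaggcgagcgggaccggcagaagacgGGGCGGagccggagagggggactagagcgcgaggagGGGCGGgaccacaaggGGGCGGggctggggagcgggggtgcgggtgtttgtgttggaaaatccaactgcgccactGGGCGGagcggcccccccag
This window held 5 GC boxes, 24 CpG dinucleotides and 69.3% G and C. A second listed start, chr17:7839667-7839966 on the same strand, held 53% G and C, 2 CpG dinucleotides and no match to any of the 6 motifs searched. Which start DU145 cells use was not tested.

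KDM1A encodes LSD1, the flavin-dependent demethylase of mono- and dimethylated lysine 4, which works in the CoREST complex. It was at 207 and 219 CPM in shLuciferase, 154 and 165 in shZMYND8 and 169 and 189.7 in shJARID1D. Both controls lay above all 4 knockdown libraries. KDM1A fell 1.33-fold in shZMYND8 (log2 fold change -0.41 ± 0.12, adjusted p = 0.0402). The adjusted p was 0.0645 without shLuciferase replicate 2, 0.2595 without shZMYND8 replicate 1, 0.139 without shZMYND8 replicate 2, 0.0810 without shJARID1D replicate 1 and 0.0757 without shJARID1D replicate 2. In shJARID1D the log2 fold change was -0.24, with an adjusted p of 0.245. LUZP1, which overlaps KDM1A in RefSeq, had a log2 fold change of 0.04 in shZMYND8 (adjusted p = 0.873), and whether strand was kept in the libraries is not stated in the sources used here.

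The promoter window of KDM1A is set beside that of KDM6B because the genes moved in opposite directions in shZMYND8. It spans chr1:23019218-23019517 on the plus strand of GRCh38.p14, and capitals again mark the GC box.
KDM1A: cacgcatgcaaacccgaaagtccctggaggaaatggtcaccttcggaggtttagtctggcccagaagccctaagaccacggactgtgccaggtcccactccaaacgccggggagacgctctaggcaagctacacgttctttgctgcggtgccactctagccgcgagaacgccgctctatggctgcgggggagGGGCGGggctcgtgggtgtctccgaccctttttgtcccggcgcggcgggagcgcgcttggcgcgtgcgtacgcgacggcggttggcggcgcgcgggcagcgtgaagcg
It held 1 GC box, 36 CpG dinucleotides and 66.7% G and C, where the first KDM6B window held 24 CpG dinucleotides. The median number of CpG dinucleotides was 14 over all windows and 29 over those of the set. A GC box was found in 45% of all windows and for 27 of 34 genes of the set. Its presence in both windows thus does not set these genes apart.

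KDM2A, a CpG-binding Jumonji demethylase of lysine 36, was at 164 and 166 CPM in shLuciferase, 205 and 222 in shZMYND8 and 164 and 168 in shJARID1D. Its shZMYND8 libraries stood above the other 4, which were nearly level. KDM2A rose 1.30-fold in shZMYND8 (log2 fold change 0.37 ± 0.11, adjusted p = 0.0472), and in shJARID1D its log2 fold change was 0.01 (adjusted p = 0.967). With each library left out in turn the shZMYND8 call was lost: the adjusted p was 0.0677 and 0.0591 without shLuciferase replicates 1 and 2, 0.1555 and 0.2675 without shZMYND8 replicates 1 and 2, and 0.0987 and 0.108 without shJARID1D replicates 1 and 2. The direct contrast of the knockdowns gave 0.36 with an adjusted p of 0.0531. That contrast passed without either shLuciferase library, where more of all genes were called too.

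The other 9 demethylases passed in no comparison. KDM1B, the second LSD-type demethylase of lysine 4, was at 21.3 and 18.8 CPM in shLuciferase, 24.8 and 27.3 in shZMYND8 and 28.9 and 24.3 in shJARID1D. Its 4 knockdown libraries lay above both controls, and the log2 fold changes were 0.38 (adjusted p = 0.0977) in shZMYND8 and 0.41 (0.116) in shJARID1D. KDM6A, the X-linked relative of KDM6B and a subunit of the KMT2C and KMT2D complexes, was at 35.9 and 31.9 CPM in shLuciferase, 44.4 and 44.6 in shZMYND8 and 36.5 and 30.5 in shJARID1D. Its shZMYND8 libraries were above the rest (log2 fold change 0.39, adjusted p = 0.0703), and in shJARID1D it was at -0.02. KDM6A passed in shZMYND8 without shLuciferase replicate 1. In the direct contrast its adjusted p was 0.0615, and it passed without either shLuciferase library, where more of all genes were called too. KDM2B, a relative of KDM2A that brings Polycomb complexes to CpG islands, had a log2 fold change of -0.33 in shZMYND8 (adjusted p = 0.0833). RNF34, which overlaps KDM2B in RefSeq, had -0.63 with an adjusted p of 0.00474, and the part of shared reads in the KDM2B value was not tested. The lysine 9 demethylases KDM3A and KDM3B had log2 fold changes of 0.18 and -0.05 with ZMYND8 lowered and of 0.25 and -0.29 with KDM5D lowered. KDM4A, KDM4B and KDM4C, which act on lysines 9 and 36, were between -0.18 and -0.04 in shZMYND8 and between -0.17 and 0.21 in shJARID1D. PHF8, which reads trimethylated lysine 4 and demethylates lysine 9, was at 0.11 in shZMYND8 and 0.07 in shJARID1D. Over the 12 demethylases, edgeR called 0 in shJARID1D, with 3 at an unadjusted p under 0.05, and DESeq2 and limma voom called 0 too.

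Methyltransferases and their subunits showed 0 calls against the controls by edgeR. An unadjusted p under 0.05 was found for 5 of 9 in shZMYND8 and 2 of 9 in shJARID1D. Over all 15867 genes tested it was found for 4969 and 3738. In shZMYND8, DESeq2 called 1 of them, SETD7, and limma voom called 0. In shJARID1D both tools called 0. By value, 7 of the 9 were lower in shZMYND8, beside 8017 of 15867 genes tested. The median log2 fold change was -0.16, beside -0.01 over all genes tested. With 0 edgeR calls, this is no result about the group. In shJARID1D the median was 0.00. The 2 that were higher in shZMYND8 were the catalytic subunits SETD1A and SETD1B.

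SETD7, which places a single methyl group on lysine 4 and also methylates other proteins, was the member that differed most between the knockdowns among those called. It was at 148 and 134 CPM in shLuciferase, 102 and 116 in shZMYND8 and 154 and 175 in shJARID1D. The shZMYND8 libraries lay below the controls and the shJARID1D libraries above them, without overlap. SETD7 was 1.51-fold lower in shZMYND8 than in shJARID1D (log2 difference -0.60 ± 0.13, adjusted p = 0.0136). Against the controls, the log2 fold change was -0.37 in shZMYND8 (adjusted p = 0.0722, and 0.0423 without shLuciferase replicate 2) and 0.22 in shJARID1D (0.318). The direct call was lost without shZMYND8 replicate 1 (0.134) or 2 (0.0629) and without shJARID1D replicate 1 (0.0530) or 2 (0.125).

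SETD1A, the catalytic subunit of a COMPASS complex that trimethylates lysine 4, was at 12.2 and 18.4 CPM in shLuciferase, 21.3 and 24.3 in shZMYND8 and 13.97 and 15.5 in shJARID1D. Its shZMYND8 libraries stood above the other 4, and the 2 controls were far apart. The log2 fold change was 0.57 ± 0.19 in shZMYND8 (adjusted p = 0.0677, with 0.31 and an adjusted p of 0.186 without shLuciferase replicate 1, and 0.89 and 0.00441 without replicate 2). Between the knockdowns it was 0.63 ± 0.19 (adjusted p = 0.0505), and this passed without either shLuciferase library, where more of all genes were called too. SETD1B, the paralogue in the sister complex, was at 9.54 and 11.2 CPM in shLuciferase, 13.6 and 14.3 in shZMYND8 and 11.1 and 10.8 in shJARID1D. It too was above all other libraries in shZMYND8 (log2 fold change 0.43, adjusted p = 0.0833, and 0.2025 or 0.0438 without shLuciferase replicate 1 or 2).

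The 4 shared COMPASS subunits were lower by value in shZMYND8, and their libraries did not overlap with the controls, as for 27.8% of all genes tested that were lower in this way. None of the 4 passed by edgeR, so this is no result about the complex. For DPY30 the gap was narrow, with 37.0 CPM in the higher shZMYND8 library and 37.4 in the lower control. WDR5, the subunit that holds the complex together, had a log2 fold change of -0.31 (adjusted p = 0.117), RBBP5 -0.27 (0.159), DPY30 -0.34 (0.162) and ASH2L -0.11 (0.585). These values turned on the control library used: WDR5 was at -0.45 (0.0164) without shLuciferase replicate 1 and -0.17 (0.322) without replicate 2, and DPY30 at -0.15 (0.495) and -0.51 (0.0277). In shJARID1D the same subunits stood at -0.23, 0.02, -0.35 and 0.06, and without shLuciferase replicate 1 or 2 WDR5 was at -0.37 (0.0488) or -0.09 (0.666) and DPY30 at -0.16 (0.478) or -0.52 (0.0484). MEN1, the menin protein that tethers MLL complexes, was at -0.10 in shZMYND8 and -0.37 in shJARID1D (adjusted p = 0.115), and in shJARID1D its adjusted p was 0.0266 or 0.242 without shLuciferase replicate 1 or 2. EZH2, the catalytic subunit of Polycomb repressive complex 2, was at 80.0 and 79.9 CPM in shLuciferase, 70.4 and 72.5 in shZMYND8 and 78.3 and 81.7 in shJARID1D. Its shZMYND8 libraries were below the others by a log2 fold change of -0.16 (adjusted p = 0.339), and in shJARID1D it was at 0.00.

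**Figure D2:**
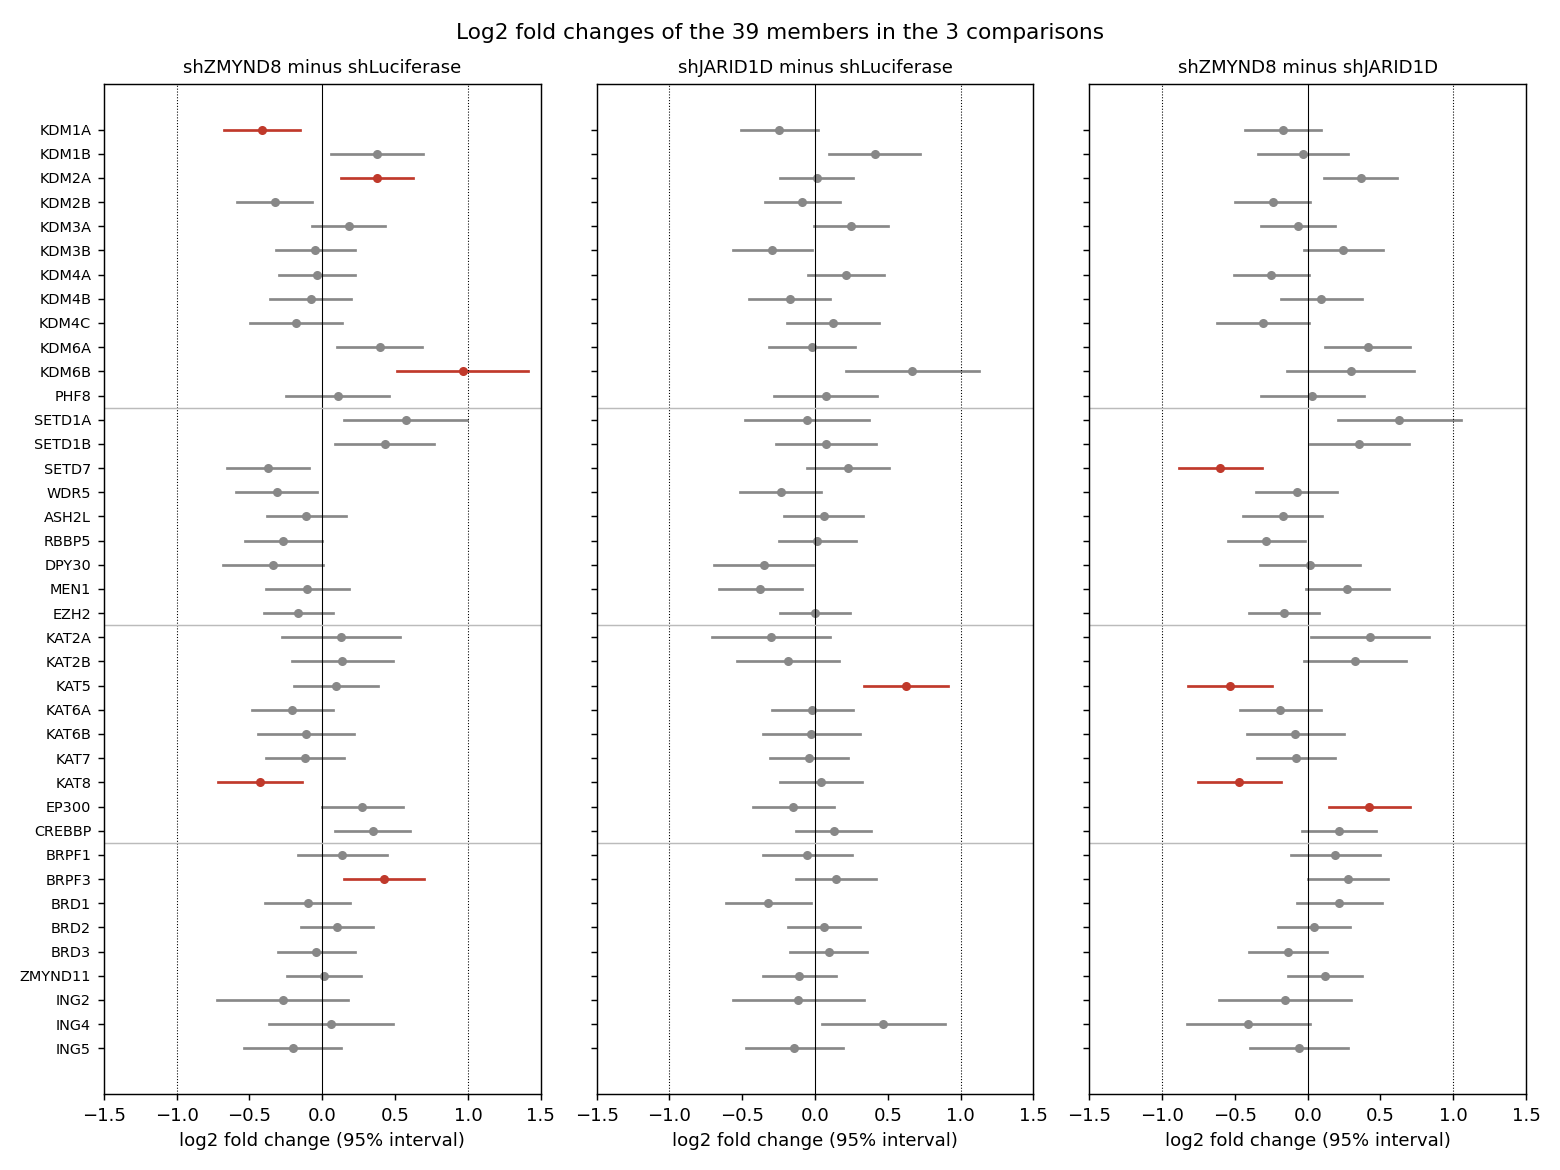
Log2 fold changes of the 39 genes with 95% intervals in the 3 comparisons, grouped by role from demethylases at the top to readers at the bottom. Red marks an adjusted p under 0.05, the dotted lines mark 2-fold, and the intervals of 38 of 39 genes lie within those lines in each panel.

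Acetyltransferases held the 1 gene that rose in shJARID1D. KAT5 encodes TIP60, the catalytic subunit of the NuA4 complex, which acetylates histones H4 and H2A. It was at 38.1 and 46.0 CPM in shLuciferase, 46.7 and 43.1 in shZMYND8 and 63.2 and 66.6 in shJARID1D. Both shJARID1D libraries stood above the other 4, which overlapped. KAT5 rose 1.54-fold in shJARID1D (log2 fold change 0.63 ± 0.13, 95% interval 0.34 to 0.92, adjusted p = 0.0261), while its log2 fold change in shZMYND8 was 0.10 (adjusted p = 0.667). The direct contrast put it 1.45-fold lower in shZMYND8 than in shJARID1D (-0.53 ± 0.13, adjusted p = 0.0237). The rise in shJARID1D and the direct difference were each lost without any 1 knockdown library, where fewer of all genes were called too. With 1 library left out, their log2 values ran from 0.50 to 0.77 and from -0.59 to -0.48. RNASEH2C, which overlaps KAT5 in RefSeq, was at 33.8 and 39.2 CPM in shLuciferase and 38.9 and 42.9 in shJARID1D, with a log2 fold change of 0.17 (adjusted p = 0.469).

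The promoter window of KAT5 is shown because it was the 1 gene of the set called in shJARID1D. It spans chr11:65712002-65712301 on the plus strand of GRCh38.p14, and capitals mark an E-box (CACGTG), ETS motifs (CCGGAAG) and a GC box (GGGCGG).
KAT5: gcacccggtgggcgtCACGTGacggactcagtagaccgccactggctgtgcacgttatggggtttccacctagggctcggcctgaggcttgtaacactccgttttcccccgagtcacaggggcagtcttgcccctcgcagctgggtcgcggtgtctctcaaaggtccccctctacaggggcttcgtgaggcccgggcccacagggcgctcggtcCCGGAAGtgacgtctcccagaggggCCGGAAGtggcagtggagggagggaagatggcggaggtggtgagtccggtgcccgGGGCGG
It held 1 E-box, 2 ETS motifs, 1 GC box, 23 CpG dinucleotides and 67.3% G and C.

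KAT8, also called MOF, acetylates lysine 16 of histone H4. It was at 28.5 and 30.4 CPM in shLuciferase, 23.1 and 20.7 in shZMYND8 and 28.7 and 31.9 in shJARID1D. The shZMYND8 libraries lay below the other 4. KAT8 fell 1.34-fold in shZMYND8 (log2 fold change -0.43 ± 0.13, adjusted p = 0.0491) and was 1.38-fold lower than in shJARID1D (-0.47 ± 0.13, adjusted p = 0.0358). The fall lay just inside the threshold, and its adjusted p was 0.0537 with DESeq2, 0.0554 with limma voom, 0.0660 with upper quartile factors, 0.0710 with library totals, 0.0548 with a mean count of at least 50, 0.0771 without shLuciferase replicate 2, 0.148 and 0.2765 without shZMYND8 replicates 1 and 2, and 0.0929 and 0.0869 without shJARID1D replicates 1 and 2. The difference from shJARID1D was lost without shZMYND8 replicate 1 (0.121) or 2 (0.244) and without shJARID1D replicate 1 (0.113) or 2 (0.231), and without a filter on low counts (0.0574).

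EP300 and CREBBP are paralogous coactivators that acetylate histone H3 at enhancers. EP300 was at 55.0 and 47.0 CPM in shLuciferase, 58.4 and 65.1 in shZMYND8 and 46.0 and 46.0 in shJARID1D. Its shZMYND8 libraries were the highest and its shJARID1D libraries the lowest. EP300 was 1.34-fold higher in shZMYND8 than in shJARID1D (0.42 ± 0.12, adjusted p = 0.0464), and this was lost without shZMYND8 replicate 1 (0.133) or 2 (0.291) and without shJARID1D replicate 1 (0.210) or 2 (0.229), with upper quartile factors (0.0538), library totals (0.0738) or no filter (0.0858), and with unquantified genes kept (0.0510). Against the controls its log2 fold change was 0.28 in shZMYND8 (adjusted p = 0.163, with 0.39 and 0.0479 without shLuciferase replicate 1 and 0.16 and 0.386 without replicate 2) and -0.15 in shJARID1D (0.515). CREBBP was at 31.8 and 30.3 CPM in shLuciferase, 38.6 and 40.3 in shZMYND8 and 34.1 and 33.8 in shJARID1D. All 4 knockdown libraries of CREBBP lay above the controls, at log2 fold changes of 0.35 (adjusted p = 0.0685) and 0.13 (0.541).

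KAT2A, the GCN5 acetyltransferase of the SAGA and ATAC complexes, had the widest control pair of the set. It was at 44.4 and 69.7 CPM in shLuciferase, 62.8 and 61.7 in shZMYND8 and 46.4 and 46.2 in shJARID1D. Both knockdown pairs were tight and lay inside the range of the controls. The log2 fold changes were 0.13 in shZMYND8 (adjusted p = 0.687) and -0.30 in shJARID1D (0.358). Without shLuciferase replicate 2 it was called higher in shZMYND8 (0.48, adjusted p = 0.0169), and without shLuciferase replicate 1 it was called lower in shJARID1D (-0.59, adjusted p = 0.00884). The direct contrast was 0.43 (adjusted p = 0.140), and it passed without either shLuciferase library, where more of all genes were called too. The remaining acetyltransferases, KAT2B (PCAF), KAT6A (MOZ), KAT6B (MORF) and KAT7 (HBO1), were at 0.14, -0.21, -0.11 and -0.12 in shZMYND8 and at -0.19, -0.02, -0.03 and -0.04 in shJARID1D. None of these 4 passed in any of the 3 comparisons by edgeR.

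**Figure D3:**
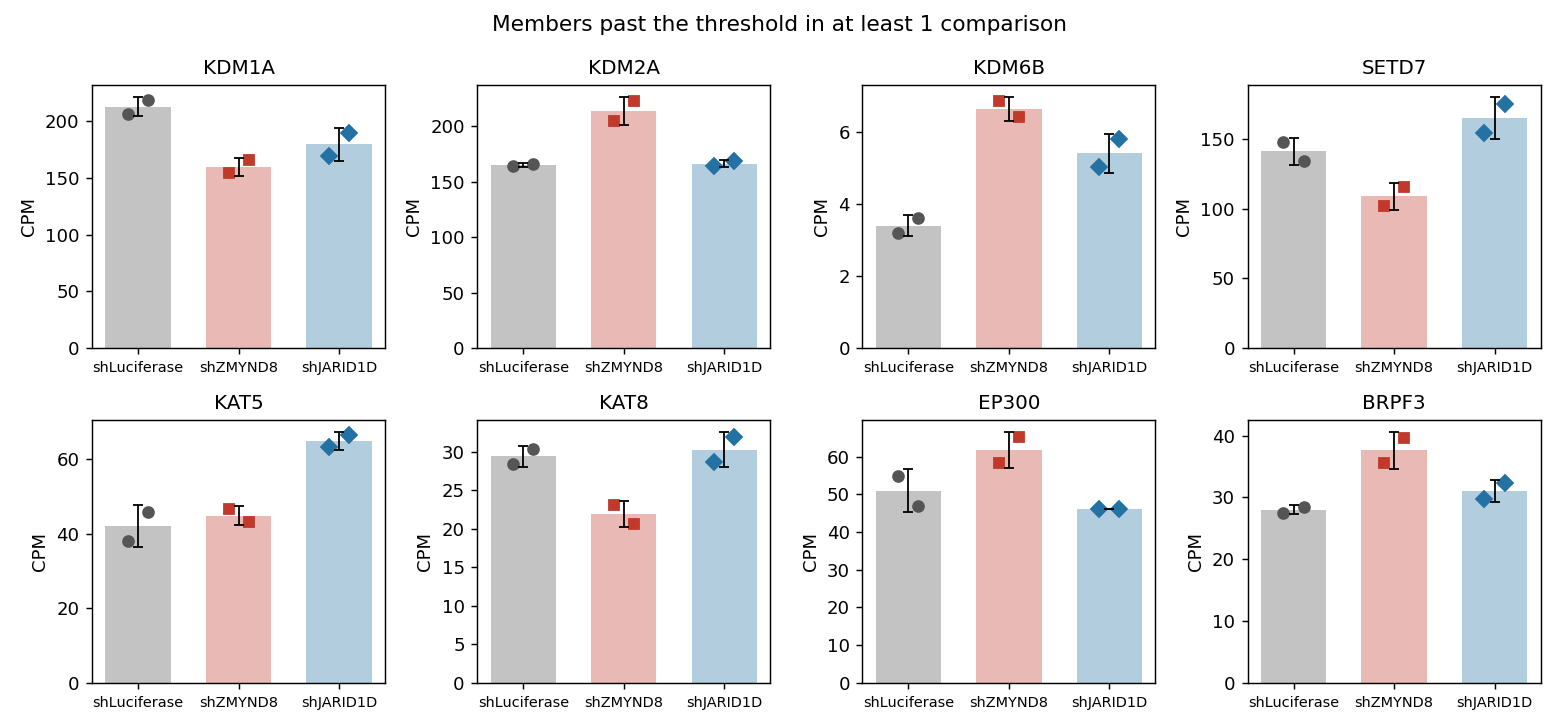
CPM of the 8 genes called in at least 1 comparison. Bars are means of the 2 libraries of each group, error bars are SDs, points are libraries, and axes start at 0. KDM6B, KDM2A and BRPF3 are highest in shZMYND8, KAT5 is highest in shJARID1D, and KDM1A is highest in shLuciferase.

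Among readers and scaffolds, BRPF3 was the 1 gene called. BRPF proteins join KAT6A, KAT6B or KAT7 to chromatin and hold a bromodomain, PHD fingers and a PWWP domain. BRPF3 was at 27.5 and 28.5 CPM in shLuciferase, 35.5 and 39.7 in shZMYND8 and 29.7 and 32.3 in shJARID1D. Its 2 shZMYND8 libraries were the highest and its controls the lowest. BRPF3 rose 1.34-fold in shZMYND8 (log2 fold change 0.43 ± 0.12, adjusted p = 0.0421), with 0.15 in shJARID1D (0.511). The call was lost without shLuciferase replicate 1 (0.0627), without shZMYND8 replicate 1 (0.127) or 2 (0.266) and without shJARID1D replicate 1 (0.0796) or 2 (0.0877). Its paralogues BRPF1 and BRD1 had log2 fold changes of 0.14 and -0.10 in shZMYND8. BRD1 was at 33.0 and 39.1 CPM in shLuciferase, 32.5 and 34.7 in shZMYND8 and 30.1 and 27.6 in shJARID1D. Its shJARID1D libraries were the lowest of the 6 (log2 fold change -0.32, adjusted p = 0.176, with -0.44 and 0.0455 without shLuciferase replicate 1 and -0.19 and 0.392 without replicate 2).

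ING proteins bind trimethylated lysine 4 through a PHD finger and link it to acetyltransferase or deacetylase complexes. ING4, a subunit of KAT7 complexes, was at 10.0 and 9.25 CPM in shLuciferase, 11.7 and 8.46 in shZMYND8 and 14.6 and 12.1 in shJARID1D. Its shJARID1D libraries lay above the other 4 (log2 fold change 0.47, adjusted p = 0.170), and its shZMYND8 libraries enclosed the controls. ING2 and ING5 were at -0.27 and -0.20 in shZMYND8 and at -0.11 and -0.14 in shJARID1D. The BET bromodomain proteins BRD2 and BRD3 were at 0.10 and -0.04 in shZMYND8 and at 0.06 and 0.09 in shJARID1D. ZMYND11, a relative of ZMYND8 that reads methylated lysine 36, was at 0.01 in shZMYND8 (95% interval -0.24 to 0.27) and at -0.11 in shJARID1D (-0.36 to 0.15). Over the 9 readers, edgeR called 0 in shJARID1D with 2 at an unadjusted p under 0.05, and DESeq2 and limma voom called 0.

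Both knockdown comparisons use the same 2 control libraries, so likeness between them carries no weight of its own. The direct contrast does not use the controls in its difference, but their spread enters its p-values through the shared fit. In it, 32 of 39 genes had no overlap between the knockdowns, 17 higher and 15 lower in shZMYND8, where 65.4% of all genes tested had none (32.7% in each direction). The median absolute log2 difference of the 39 was 0.22, beside 0.27 over all genes. The interval lay within 2-fold for 38 of 39, with SETD1A the exception, and within 1.5-fold for 25. Among the 12 demethylases edgeR called 0 in this contrast, with 2 at an unadjusted p under 0.05, whereas DESeq2 and limma voom each called 1, KDM2A.

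Promoter windows from RefSeq were matched to 34 of the 39 genes, 64 windows in all, and not to SETD1B, ASH2L, DPY30, KAT6A and KAT8. Their median share of G and C was 66.5% with a median of 29 CpG dinucleotides, where all 35116 windows of 27305 genes had 58.7% and 14. On either strand, the GC box GGGCGG was found for 27 of the 34 genes and in 45% of all windows. The CCAAT box, spelled CCAAT, was found for 14 genes and in 34.6% of all windows. The E-box CACGTG was found for 6 genes (7.26% of all windows) and the ETS motif CCGGAAG for 7 (10.3%). The kappaB motif was found for 0 genes (1.91% of all windows) and the interferon response element for 1 (3.57%). Genes with several windows have more chances of a match than 1 window, so these counts are descriptions of the letters and are not comparable as rates.

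The genes that work with the 39 were read from 5 lists of 90 genes, of which 89 were tested. In shZMYND8, 6 rose, 6 fell and 77 did not pass, and in shJARID1D 2 rose, 3 fell and 84 did not pass. The shares called against the controls, 13.5% and 5.62%, are near the 16.2% and 5.75% of all genes tested and are no result about the lists. Between the knockdowns 11 were higher in shZMYND8, 11 were lower and 67 did not pass. That is 24.7%, beside 15.7% of all genes tested. By list, this share ran from 11.1% (Polycomb repressive complex 2) to 43.8% (MLL family and COMPASS). Whether these shares differ from that of all genes, or rest on single libraries, was not tested. The lists were chosen with earlier results of these data known, which limits what any such share can show. Among 16 genes listed as MLL family and further COMPASS genes, 3 rose and 2 fell in shZMYND8. The list also holds SMYD2, SMYD3 and ASH1L, methyltransferases outside these complexes. The share called was 31.2% of the list, beside 16.2% of all genes tested. Its median log2 fold change was -0.09, beside -0.01 over all genes. KMT2D, a catalytic subunit that monomethylates lysine 4 at enhancers, was at 36.8 and 36.0 CPM in shLuciferase, 54.2 and 59.0 in shZMYND8 and 45.7 and 43.5 in shJARID1D. The 3 groups did not overlap. KMT2D rose 1.55-fold in shZMYND8 (adjusted p = 0.00612, and 0.0696 without shZMYND8 replicate 2). CXXC1, the CpG-binding subunit of the SETD1A and SETD1B complexes, was at 34.6 and 48.4 CPM in shLuciferase, 22.9 and 25.03 in shZMYND8 and 36.2 and 38.3 in shJARID1D. CXXC1 was lowest in shZMYND8 and fell 1.73-fold (adjusted p = 0.0104, and 0.103 or 0.0593 without shZMYND8 replicate 1 or 2). Named after their values were seen, KMT2A and KMT2C rose by 0.47 and 0.56 on the log2 scale, and PAXIP1 fell by 0.50. The highest adjusted p with 1 library left out was 0.1875 for KMT2A, 0.1985 for KMT2C and 0.161 for PAXIP1, each without an shZMYND8 library, and without the other shZMYND8 library it was 0.126, 0.103 and 0.109. KMT2A also lost its call without shLuciferase replicate 2 (0.0625) and shJARID1D replicate 1 (0.0561) or 2 (0.0629), and KMT2C without shLuciferase replicate 2 (0.0684) and shJARID1D replicate 2 (0.0559). In shJARID1D edgeR called 0 of the 16, with 7 at an unadjusted p under 0.05, and DESeq2 and limma voom called 0.

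The lists around the acetyltransferases and readers held the largest single rises. KANSL3, a subunit of the NSL complex that contains KAT8, was at 45.9 and 49.8 CPM in shLuciferase, 92.5 and 94.8 in shZMYND8 and 67.3 and 65.1 in shJARID1D. Its groups did not overlap, and KANSL3 rose 1.96-fold in shZMYND8 (adjusted p = 0.000817). Its log2 fold change was 0.91 to 1.03 with any 1 library left out. KAT8 fell there, and the listed relatives KANSL1 and KANSL2 were at -0.02 (0.935) and -0.04 (0.859), so no pattern of the complex is shown. In shJARID1D KANSL3 rose by 0.47 on the log2 scale (adjusted p = 0.0413, and 0.269 or 0.183 without shJARID1D replicate 1 or 2). CECR2, a bromodomain protein of a chromatin remodelling complex, was at 8.47 and 9.55 CPM in shLuciferase, 18.5 and 20.2 in shZMYND8 and 12.1 and 12.1 in shJARID1D. CECR2 rose 2.15-fold in shZMYND8 (adjusted p = 0.00142, at most 0.0191 with any 1 library left out). ATAD2, a bromodomain ATPase, fell 1.58-fold in shZMYND8 (adjusted p = 0.00674, and 0.0892 without shZMYND8 replicate 1), and ING1 fell by 0.59 on the log2 scale (0.0229, and 0.0892 or 0.174 without shZMYND8 replicate 1 or 2). BRDT, named after its value was seen, fell by 0.65 (0.0266, and 0.170 without shZMYND8 replicate 2, 0.119 without shZMYND8 replicate 1 and 0.0570 without shLuciferase replicate 1). Of the 27 genes listed with acetyltransferase complexes, 1 rose and 1 fell in shZMYND8. The 1 that fell was ING1, of a family that also joins deacetylase complexes. Of the 23 tested readers 1 rose and 2 fell. These shares are 7.41% and 13.04%, beside 16.2% of all genes tested.

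In shJARID1D, RCOR1, the CoREST scaffold that binds KDM1A, was at 126 and 109 CPM in shLuciferase, 102 and 108 in shZMYND8 and 79.2 and 77.5 in shJARID1D. Its shJARID1D libraries were below all others, and RCOR1 fell 1.5-fold (adjusted p = 0.0260). PHF19, a Polycomb accessory protein that reads lysine 36 methylation, was at 204 and 274 CPM in shLuciferase, 157 and 175 in shZMYND8 and 136 and 141 in shJARID1D. PHF19 was lower in all 4 knockdown libraries and fell in shJARID1D by 0.79 (adjusted p = 0.0208) and in shZMYND8 by 0.53 on the log2 scale (0.0392). JARID2, an accessory subunit of another form of Polycomb repressive complex 2, rose in shZMYND8 by 0.40 (0.0329). EPC1, a scaffold of the NuA4 complex that contains KAT5, rose in shJARID1D by 0.58 (0.0251), and JADE2 (listed as PHF15), a scaffold of KAT7 complexes, fell by 0.64 (0.0251). Each of these 5 genes lost its call without either library of the knockdown concerned, with adjusted p up to 0.1875 for RCOR1, 0.167 and 0.251 for PHF19 in shJARID1D and shZMYND8, 0.208 for JARID2, 0.193 for EPC1 and 0.229 for JADE2. RCOR1, EPC1, JADE2 and, in shJARID1D, KANSL3 also lost it without either shZMYND8 library, at 0.0576, 0.0576, 0.0552 and 0.0953 without shZMYND8 replicate 1 and at 0.0617, 0.0617, 0.0607 and 0.1004 without replicate 2. In shZMYND8, PHF19 also lost it without shLuciferase replicate 2 (0.116) and shJARID1D replicate 1 (0.0718) or 2 (0.0659), and JARID2 without shJARID1D replicate 1 (0.0771) or 2 (0.0832). Of the 17 calls against the controls in the lists, 7 held under every other scaling, filter, tool and sample choice and 2 without each library in turn. RCOR1, EPC1, JADE2, JARID2, KMT2A, KMT2C, PHF19 in shZMYND8 and KANSL3 in shJARID1D were also lost without a filter and with only the groups compared, and BRDT and PHF19 in shJARID1D without a filter. Of the 14 further demethylases and LSD1 partners, edgeR called 0 in shZMYND8, with 2 at an unadjusted p under 0.05, and DESeq2 and limma voom called 0.

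**Figure D4:**
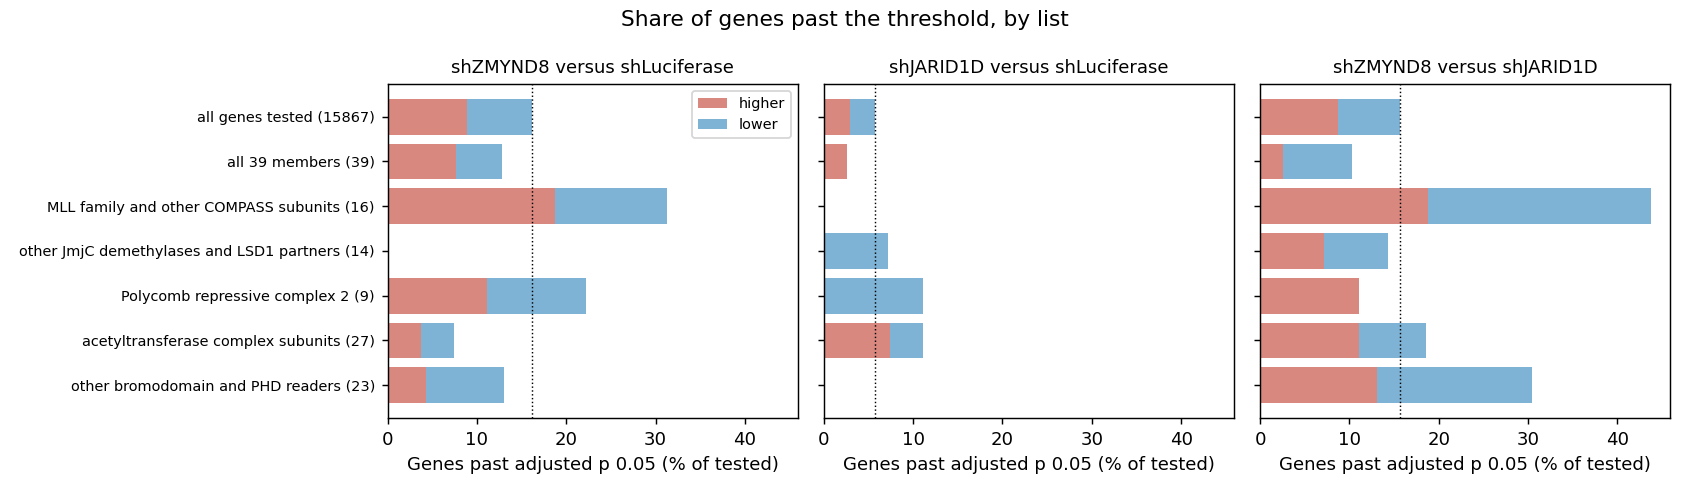
Share of genes called higher (red) or lower (blue) in each comparison, for all genes tested, the 39 genes and the 5 lists around them. Numbers in brackets are genes tested, and the dotted line is the share over all genes. The bar of the 39 genes ends left of that line in each panel.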

How the data were processed

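RNA-seq of 6 DU145 libraries was analysed. Per the labels, total RNA was extracted for Illumina libraries. Per the submitters' processing notes, the build was hg19 and the tools were Cuffdiff, edgeR 3.12.0, Bowtie 1.1.2 and TopHat2 2.0.12. The annotation, any poly(A) selection and the strand setting are not stated in the sources used here. The deposited values are expected counts per gene, estimated by the authors' software. They carry a library scaling in which 1 fragment was estimated to be worth 0.881 to 1.16, which puts the libraries at 20735324 to 27440601 fragments. Precision is limited by this number and by the spread between the libraries of a group. The 18 variance columns were not used. Columns named Rac7_KO were read as shZMYND8, because an antibody label gives RACK7 as another name of ZMYND8.

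Deposited status marks were used to leave out 60 genes not quantified in some library, and 10 failed genes were kept. Counts were rounded and tested by the quasi-likelihood method of edgeR 4.0.16 under R 4.3.3, with TMM factors and filterByExpr, over 15867 genes, with all 6 libraries in the fit, 3 residual degrees of freedom and Benjamini-Hochberg adjustment. CPM are effective-library CPM, SDs are over 2 libraries, and the 95% intervals come from the fit. That fit draws each gene's spread toward that of all genes tested, with 6.83 prior beside 3 residual degrees of freedom. The scripts were tested on simulated data. The members and lists were chosen with earlier results of these data known. Named genes were the targets, every member past the threshold, the 2 largest changes not past it in each role, and up to 2 genes per list and knockdown by adjusted p. All 90 list genes were matched, 7 of them through a synonym, and SP140 was not tested. Other markers of the luminal list are not reported here.

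Promoter windows come from RefSeq (GRCh38.p14), and overlapping genes were taken from RefSeq as names and neighbours only. Alternatives were other scalings and filters, DESeq2 1.42.0, limma 3.58.1 voom, fits restricted to 2 groups, a replicate block, leaving out each library, other treatments of marked genes and of the deposited scaling, and stricter thresholds. Tables and figures used Python 3.11.15, numpy 2.4.6, pandas 2.3.3, scipy 1.17.1 and matplotlib 3.10.9.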

Additional observations from a re-analysis of the deposited data

Results flagged for a closer look

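For 4 of the 39 genes the change against the controls differed between the knockdowns by the direct contrast of shZMYND8 and shJARID1D in edgeR. That is 10.3%, beside 15.7% of all genes tested, and is no result about the set. The log2 difference was -0.60 for SETD7 (adjusted p = 0.0136), -0.53 for KAT5 (0.0237), -0.47 for KAT8 (0.0358) and 0.42 for EP300 (0.0464). SETD7 and EP300 lay on opposite sides of the controls in the 2 knockdowns, KAT5 passed against the controls in shJARID1D and not in shZMYND8, and KAT8 the reverse. Each of the 4 calls was lost without either library of either knockdown.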

How the results depend on the processing

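Of 10 calls of members (8 genes, with KAT5 and KAT8 in 2 comparisons each), 3 held under every other scaling, filter, tool and sample choice, 0 held at the stricter thresholds, 0 held without each library in turn, and 0 changed sign. In shZMYND8, 3 members rose and 2 fell. Those that rose numbered 1 without a filter, 1 with only the groups compared and 0 at an adjusted p under 0.01 or a log2 fold change of at least 1. Those that fell numbered 1 with upper quartile factors, library totals, a mean count of at least 50 or voom, and 0 without a filter, with only the groups compared, at 0.01 or at a log2 fold change of 1. In shJARID1D the 1 rise became 0 without a filter, with only the groups compared, at 0.01 and at a log2 fold change of 1. Between the knockdowns, the 1 higher gene became 2 with relative log expression factors or voom, 3 with a mean count of at least 50 or DESeq2, 5 with only the groups compared, and 0 with upper quartile factors, library totals, no filter, 0.01 or a log2 fold change of 1. The 3 lower became 2 without a filter (KAT8 was lost) and 0 at 0.01 and at a log2 fold change of 1. With 1 library left out, counts ran from 0 to 5 higher and 0 to 3 lower in shZMYND8, 0 to 1 and 0 to 4 in shJARID1D, and 0 to 5 and 0 to 3 between the knockdowns. Where such a fit called 0 members, edgeR still gave 3 to 8 at an unadjusted p under 0.05. Over all genes, no filter lowered the share called to 8.58%, 0.969% and 7.41%, and only the groups compared gave 12.8%, 2.90% and 27.1%. In shJARID1D library totals moved the split to 709 higher and 294 lower and upper quartile factors to 540 and 335, from 469 and 443. Between the knockdowns library totals gave 1140 and 1392, from 1376 and 1114. In every comparison, leaving out a knockdown library lowered the share called over all genes, and leaving out an shLuciferase library raised it. The causes were not tested.

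Replicate numbers are shared between groups, and the deviations of same-numbered libraries correlated at 0.09, 0.17 and 0.10. With 2 libraries per group, these values cannot show whether same-numbered libraries were handled together. With a replicate block, 6 members were higher and 3 lower in shZMYND8 (KDM6A, SETD1A, SETD7 and CREBBP were added), 1 higher and 1 lower in shJARID1D (MEN1 was added), and 4 higher and 3 lower between the knockdowns. The block raised the share called over all genes to 23.3%, 13.1% and 23.9%.

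Of 117 member values (39 genes in 3 comparisons), 36 changed sign under at least 1 setting, and 0 of these were past the threshold. For the named genes, in shZMYND8 the values with 1 library left out ran from -0.106 to 0.0053 for KDM5D, -0.219 to 0.017 for MEN1, -0.166 to 0.483 for KAT2A, -0.038 to 0.234 for KAT5, -0.221 to 0.023 for BRD1 and -0.193 to 0.268 for ING4. In shJARID1D they ran from -0.0062 to 0.031 for KDM2A, -0.151 to 0.1075 for KDM6A, -0.321 to 0.266 for SETD1A, -0.040 to 0.194 for SETD1B, -0.591 to 0.058 for KAT2A and -0.033 to 0.117 for KAT8. Between the knockdowns they ran from -0.158 to 0.100 for KDM1B and -0.133 to 0.147 for DPY30. KDM6A in shJARID1D was at 0.030 with upper quartile factors, 0.074 with library totals and 0.0041 with a mean count of at least 50. With library totals SETD1A in shJARID1D was at 0.034, and DPY30 between the knockdowns at -0.037. With 2 libraries per group, the 95% interval stayed within 1.5-fold for 24 of the 39 genes in shZMYND8 and 31 in shJARID1D, and past it for the others.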
